A study of Mus musculus with 27 samples.

Results

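Aminoacyl-tRNA synthetases are the enzymes that load each transfer RNA with its amino acid. Their genes were taken from the deposited tables by symbol, as the names formed from a one-letter amino acid code and "ars" with or without a closing 1 or 2, the cytosolic phenylalanyl subunits Farsa and Farsb with the mitochondrial Fars2, and Eprs. A level of at least 1 FPKM (fragments relative to transcript length in kilobases and to the mapped total, a level corrected for gene length) in at least 3 of 27 libraries was also required. All 37 genes with such a name met that level. They stand among 13614 genes that met the same level and 38352 genes listed in all. Of the 37, 20 encode cytosolic enzymes or subunits and 17, whose symbols end in 2, encode enzymes imported into mitochondria.

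A synthetase activates its amino acid with ATP and transfers it to the matching tRNA, and the charged tRNA then delivers that amino acid to the ribosome. Cytosolic translation and mitochondrial translation use separate sets of these enzymes, all encoded in the nucleus, except that Kars (lysyl) and Gars (glycyl) each give rise to an enzyme for both compartments. The enzymes fall into class I and class II, which have unrelated catalytic folds. Several cytosolic enzymes assemble with scaffold proteins into the multi-synthetase complex. In mammalian cells many cytosolic synthetase genes are known targets of ATF4, a transcription factor made during amino acid shortage and other stresses.

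E14Tg2a, an established line of wild-type mouse embryonic stem cells, was cultured on gelatin, with serum, the cytokine LIF (leukemia inhibitory factor) and the paired inhibitors called 2i in the medium. Treated cells received hydrogen peroxide (H2O2) at 500 µM for 30 min according to the treatment protocol, while the series description gives that figure in mM, and were then given spent medium taken from untreated cells. They were collected at 0.5 h (at the end of the exposure), then every second hour from 2 h to 10 h, and at 24 h, and the untreated cells at 0 h and 24 h, with 3 biological replicates from 3 independent time courses in each of the 9 groups. The untreated 0 h group served as the control for every treated time up to 10 h, and the untreated 24 h group for 24 h. Time in culture was therefore matched at 24 h only, and none of the 9 groups had a change of medium alone. In such bulk RNA, fewer cells of one kind and less RNA per cell cannot be told apart.

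The number of reads is unknown because the files hold FPKM, and relative depth lay between 0.982 and 1.10 of the first untreated 0 h library. The summed FPKM of 10 stem cell markers such as Pou5f1 and Nanog ranged from 2402 to 4476 over the libraries. The 10 hepatocyte, 5 astrocyte, 6 fibroblast and 6 primitive endoderm markers summed to at most 67.3, 14.6, 2.10 and 3.07 FPKM. Hepatocyte markers summed to 4.01 to 4.15 FPKM in treated cells at 24 h against 42.2 to 58.7 FPKM in untreated cells at 24 h. They summed to 46.5 to 67.3 FPKM at 0.5 h, 3.87 to 47.9 FPKM at 6 h, 4.30 to 61.9 FPKM at 8 h and at most 4.27 FPKM at the other times up to 10 h, against 3.19 to 8.42 FPKM in untreated cells at 0 h. Astrocyte markers summed to 7.09 to 14.1 FPKM at 6 h, 12.9 to 14.6 FPKM at 8 h and 6.83 to 12.2 FPKM at 10 h, against 2.42 to 3.36 FPKM in untreated cells at 0 h. Hepatocyte markers were at 0 in all 3 libraries of a group for Cyp2e1 at 2 h and 24 h after treatment and for Apoa2 and Fgb at 4 h, and among astrocyte markers Aqp4 was at 0 at 4 h. Stem cell markers summed to 2641 to 2879 FPKM at 6 h and 2402 to 3045 FPKM at 10 h, against 3471 to 4476 FPKM in untreated cells at 0 h. Single markers in that sum moved unevenly. At 6 h Nanog averaged 89.8 FPKM, against 344 FPKM in untreated cells at 0 h. Pou5f1 averaged 581 against 713 FPKM, and Esrrb 121 against 110 FPKM. Dppa5a, the largest part of the sum, averaged 1463 against 1712 FPKM. The part of these marker lists in the results was not tested. Untreated 0 h replicate 3, 2 h replicate 1, 8 h replicate 3 and 10 h replicate 3 stood apart, with GC-rich genes higher by 0.36, 0.32, 0.19 and 0.20 on the log2 scale per 10 points of GC content. The slope in 4 h replicates 1 and 3 and untreated 24 h replicate 1 was of like size (0.20, 0.17 and 0.18), and the 4 libraries were chosen with earlier results known. In untreated 0 h replicate 3, 30 of the 37 synthetase genes were lower than the mean of replicates 1 and 2, and 19 of these 30 were cytosolic. Iars and Eprs were lowest, by −1.03 and −0.98 on the log2 scale. The typical gene was also lower in untreated 0 h replicate 3. Its size factor was 0.835, against 0.997 and 1.02 in replicates 1 and 2. That factor is the median ratio of genes to their geometric mean over all libraries. The share of all genes lower in this library was not counted. This library is a control for every comparison from 0.5 h to 10 h, so results are also given without these 4 libraries.

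Cytosolic synthetase genes were the more highly expressed set, with mean FPKM over all libraries of 20.7 (Eprs, glutamyl-prolyl) to 116 (Gars). Gars ran from 76.0 to 141 FPKM over the libraries and Kars from 85.9 to 126 FPKM. Next came Nars (asparaginyl, mean 75.5 FPKM), Aars (alanyl, 74.2), Farsb (64.1) and Rars (arginyl, 58.6). The ranges of neighbouring genes in this order overlapped. Of the mitochondrial genes, 16 had means of 1.37 FPKM (Wars2, tryptophanyl) to 16.2 FPKM (Rars2, arginyl). Lars2, the mitochondrial leucyl enzyme, was listed far higher, with a mean of 91.7 FPKM and a range of 52.3 to 155 FPKM.

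The Lars2 level was uneven within groups. At 6 h its libraries read 87.4, 141 and 155 FPKM, against 80.5, 52.3 and 113 FPKM in untreated cells at 0 h, so the groups overlapped. It passed the test at no time. Positions 3172 to 3329 of its longest annotated transcript, which has 3894 bases, hold stretches of 25 bases shared with the gene models AA474408 (44 stretches) and Gm15564 (28 stretches), so reads of those models may be part of its level, which was not tested. Of its 3845 stretches of 50 bases, the length used for the other members, 3 (0.08%) occur in another gene. Gm15564 was itself listed at 6.19, 0 and 0 FPKM in the untreated 0 h libraries. Because of its high and uneven level, mitochondrial sums are given without Lars2.

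The summed FPKM of the 20 cytosolic genes averaged 1050 ± 149 in untreated cells at 0 h and 1136 ± 6.32, 1099 ± 104, 1148 ± 23.9, 1007 ± 19.1, 869 ± 13.5 and 825 ± 55.6 in treated cells from 0.5 h to 10 h (SD, n = 3 each). The 10 h libraries read 888, 806 and 782, against 1127, 1144 and 878 at 0 h, so the groups overlap through untreated replicate 3 alone. At 24 h the sum was 1092 ± 5.99 in treated cells and 1131 ± 47.4 in untreated cells. The 16 mitochondrial genes without Lars2 summed to 110 ± 4.01 FPKM in untreated cells at 0 h and reached their lowest sum at 6 h, at 94.9 to 95.9 FPKM against 108 to 115 FPKM, with no overlap. They stood at 104 ± 4.77 FPKM at 10 h, and at 105 ± 1.97 FPKM in treated cells at 24 h against 111 ± 4.13 FPKM in untreated cells. The cytosolic sum was thus lowest at 10 h and the mitochondrial sum without Lars2 at 6 h. With Lars2 the 17 mitochondrial genes had their lowest mean sum at 4 h (174 ± 14.1 FPKM) and their highest at 6 h (223 ± 35.1 FPKM). That sum was 192 ± 27.2 FPKM in untreated cells at 0 h.

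**Figure D1:**
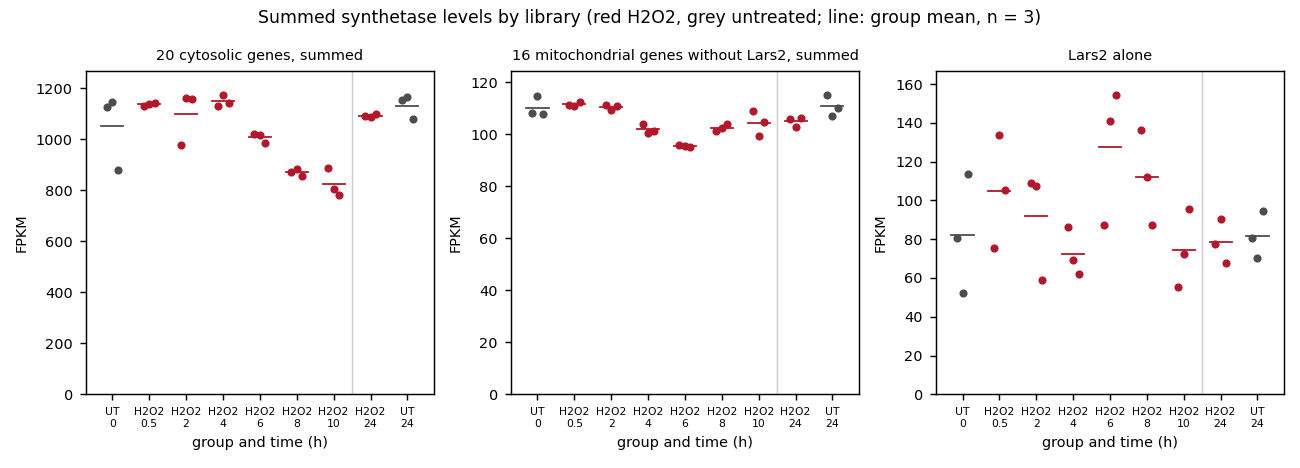
Summed FPKM of the 20 cytosolic genes, of the 16 mitochondrial genes without Lars2, and of Lars2 alone in each library, by group and time in hours, with points for libraries and lines for group means. The cytosolic sum lies at 782 to 888 in the 10 h libraries, and the mitochondrial sum without Lars2 at 94.9 to 95.9 in the 6 h libraries.

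Each gene was tested with limma on log2(FPKM + 1), in a fit of all 13614 genes and all 27 libraries, and called where the adjusted p was below 0.05. Changes below are on that scale, treated minus untreated, which understates the change of genes at low level. No synthetase gene was called at 0.5 h or 2 h, when 0.0808% and 1.07% of all genes tested were called. Without adjustment 3 members had p below 0.05 at 0.5 h (Fars2, Hars and Rars) and 2 at 2 h (Kars and Nars2). Of all 13614 genes 1352 and 1033 did. The first calls came at 4 h.

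At 4 h, 4 cytosolic genes rose and 0 fell, against 14.2% of all genes tested called higher and 12.1% called lower. Cars, the cysteinyl enzyme, read 35.5, 36.1 and 37.8 FPKM, against 30.4, 31.5 and 25.5 FPKM in untreated cells, with no overlap (0.32, SE 0.068, adjusted p = 0.00103). Hars (histidyl) rose by 0.32, Kars by 0.22 and Wars (tryptophanyl) by 0.21. Kars read 123.3, 126 and 123.5 FPKM, against 106, 109 and 105 FPKM in untreated cells. Without untreated replicate 3 the Hars and Wars changes came to 0.16 and 0.13 and were no longer called. Of the 20 cytosolic genes 19 had a positive change, with a median of 0.14 beside 0.01 for all genes. This near-uniform direction was not seen without untreated replicate 3, when 10 changes were positive and 10 negative, with a median of −0.0019 beside −0.025 for all genes. Without the 4 libraries standing apart 5 cytosolic genes were called higher and 3 lower at 4 h, with 23.1% and 28% of the genes tested in that fit. Among mitochondrial genes at 4 h, Yars2 and Rars2 fell by 0.32 and 0.30 and Wars2 rose by 0.32. Without untreated replicate 3 the Yars2 change was −0.20 and the Wars2 change 0.27, and neither was called (adjusted p = 0.12 and 0.059).

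**Figure D2:**
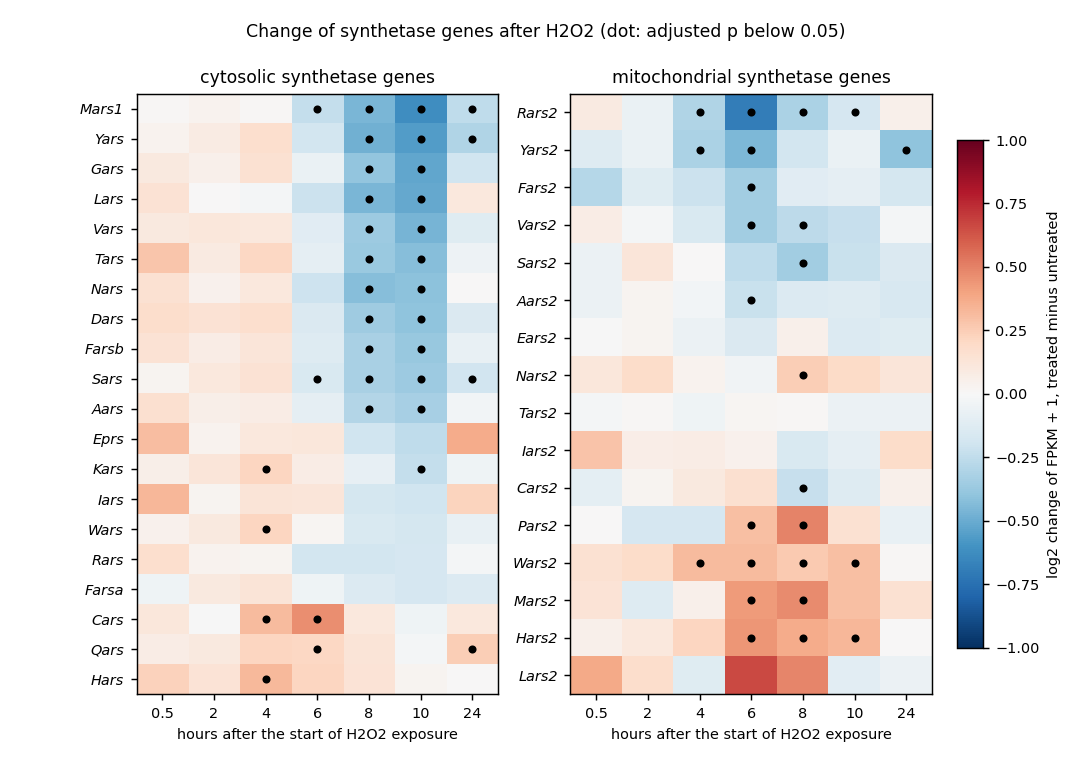
Log2 change of FPKM + 1, treated minus untreated, for cytosolic and mitochondrial synthetase genes (rows) at each time after the start of exposure (columns, hours), with a dot where the adjusted p is below 0.05. Among cytosolic genes 12 are called lower at 10 h and 0 higher, and the mitochondrial Rars2 is at −0.69 at 6 h.

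Mitochondrial synthetase genes were called most often at 6 h and 8 h, with 10 at each time. All genes tested were also called most often at these times, with 5761 and 5545 of 13614. Rars2, the mitochondrial arginyl enzyme on the plus strand at chr4:34614957-34660167 on GRCm38, read 10.2, 11.2 and 11.0 FPKM at 6 h, against 18.2, 19.4 and 16.7 FPKM in untreated cells at 0 h. The groups did not overlap, and the change was −0.69 (SE 0.059, adjusted p = 4.81e-09). Rars2 was also lower at 8 h (−0.32) and at 10 h (−0.16), and its rise between 6 h and 8 h was 0.37 (adjusted p = 6.66e-05).

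Yars2, the mitochondrial tyrosyl enzyme at chr16:16302965-16309640 on the plus strand, read 8.58, 8.996 and 9.47 FPKM at 6 h, against 11.6, 11.5 and 15.2 FPKM in untreated cells at 0 h. The groups did not overlap (−0.45, SE 0.10, adjusted p = 0.00108). Vars2 (valyl), Fars2 (phenylalanyl) and Aars2 (alanyl) were lower at 6 h by smaller amounts, with changes of −0.35, −0.35 and −0.22. Fars2 was not called without untreated replicate 3 (−0.21, adjusted p = 0.065).

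Other mitochondrial synthetase genes were higher at the same time. Hars2 (histidyl) read 8.196, 7.21 and 7.89 FPKM at 6 h, against 5.58, 6.04 and 4.76 FPKM in untreated cells at 0 h, with no overlap (0.44, SE 0.094, adjusted p = 0.000585). It also rose at 8 h (0.37) and 10 h (0.33). Exons of Hars2 and Hars overlap on opposite strands over 195 bases. Of the 50-base stretches of Hars2, 4.44% occur in Hars, so its level may hold reads of Hars. Mars2, the methionyl enzyme, read 3.46, 3.37 and 3.57 FPKM at 6 h, against 2.66, 2.88 and 1.60 FPKM (0.42, SE 0.12, adjusted p = 0.0081). Its treated libraries were all above the untreated ones, yet without untreated replicate 3 the change was 0.24 and not called at 6 h (adjusted p = 0.071). Wars2 and Pars2 (prolyl) were higher by 0.32 and 0.30. In all, the 6 h count for mitochondrial genes was 4 higher and 6 lower, against 22.3% and 20% of all genes tested, so these enzymes did not move one way.

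Pars2, at chr4:106651069-106655282 on the plus strand, was highest at 8 h. It read 6.53, 8.26 and 8.12 FPKM, against 4.74, 5.81 and 4.81 FPKM in untreated cells at 0 h, with no overlap (0.50, SE 0.086, adjusted p = 0.000104). Its rise between 4 h and 6 h was 0.46 and its fall between 8 h and 10 h was −0.34, and both passed the test. Mars2 rose by 0.47 at 8 h, at 3.82, 4.07 and 3.02 FPKM, and by 0.29 without untreated replicate 3 (adjusted p = 0.036). Nars2 (asparaginyl) and Wars2 were higher by 0.25 and 0.26 at 8 h, though both were lost with median-of-ratios scaling (adjusted p = 0.18 each). Sars2 (seryl), Rars2, Vars2 and Cars2 (cysteinyl) were lower, with changes of −0.35, −0.32, −0.26 and −0.23. At 10 h the mitochondrial calls were Hars2 and Wars2 higher and Rars2 lower. Without untreated replicate 3 both higher calls were lost (0.25 each, adjusted p = 0.060 for Hars2 and 0.087 for Wars2), and so were those of Cars2, Nars2, Sars2 and Wars2 at 8 h. Ears2 (glutamyl), Iars2 (isoleucyl), Tars2 (threonyl) and Lars2 were called at no time. Exons of Iars2 overlap those of opposite-strand genes, chiefly Rab3gap2, over 2148 bases, and 36.61% of the 50-base stretches of its transcript occur in another gene, so its level is uncertain.

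**Figure D3:**
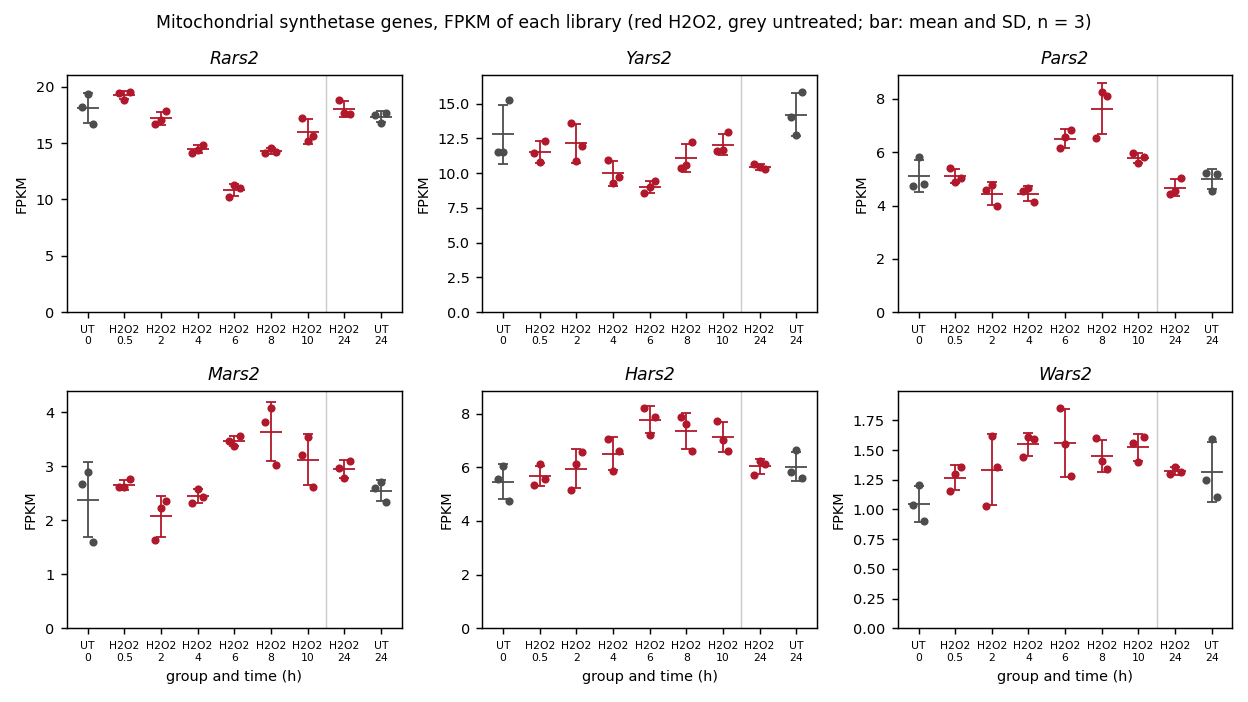
FPKM of 6 mitochondrial synthetase genes in each library, by group and time in hours, with points for libraries and bars for the mean and SD of 3 libraries. Rars2 is lowest at 6 h, at a mean of 10.8 FPKM, while Pars2 and Mars2 are highest at 8 h, at 7.64 and 3.64 FPKM.

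Among cytosolic genes few were called at 6 h, with Cars and Qars (glutaminyl) higher and Mars1 (methionyl) and Sars (seryl) lower. The Sars call at 6 h was lost in 23 of 40 other settings. Cars reached its highest level of the series, at 40.9, 40.8 and 39.7 FPKM, against 30.4, 31.5 and 25.5 FPKM in untreated cells at 0 h, with no overlap (0.46, SE 0.068, adjusted p = 8.81e-06). Qars read 38.6, 36.5 and 36.1 FPKM, against 33.8, 35.6 and 27.02 FPKM in untreated cells (0.21, adjusted p = 0.0419). Its groups did not overlap, but without untreated replicate 3 the change was 0.09 and not called. Without the 4 libraries standing apart the count of cytosolic genes at 6 h came to 1 higher and 14 lower, with 25.7% and 31% of the genes tested in that fit called, and the mitochondrial count to 6 higher and 7 lower. With median-of-ratios scaling 2 cytosolic genes were higher and 9 lower, and 4 mitochondrial genes higher and 7 lower, beside 21.1% and 23% of all genes.

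The cytosolic genes called at 8 h and 10 h were all lower. At 8 h 11 of 20 fell (Aars, Dars, Farsb, Gars, Lars, Mars1, Nars, Sars, Tars, Vars and Yars) and 0 were higher, while 11.6% of all genes tested were called lower and 29.2% higher. Of the others 3 had positive changes, the largest being those of Hars and Qars (0.14 and 0.13), while with median-of-ratios scaling all 20 were negative. Mitochondrial genes divided into 5 lower and 5 higher. At 10 h 12 cytosolic genes were lower, those named for 8 h and Kars, and 0 higher, while 9.43% of all genes were called lower and 22.2% higher. The mitochondrial count at 10 h was 1 lower and 2 higher. Both times were compared with the same 3 untreated libraries, so their counts are not independent. The median cytosolic change was −0.35 at 10 h, beside 0.11 for all genes, and 19 of 20 changes were negative. Without untreated replicate 3 that median was −0.54, beside 0.05 for all genes, with 20 of 20 negative and 16 called. In that fit 1273 of 13557 genes were called lower at 10 h and 2264 higher. Untreated replicate 3 moved Dars, Lars and Tars by over 1.5 times. Without it their 8 h changes were −0.54, −0.69 and −0.59, against −0.36, −0.46 and −0.37. The 10 h change of Tars was −0.64 without it, against −0.42.

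Mars1, on the minus strand at chr10:127296221-127311786, had the largest cytosolic fall in the fit of all libraries, while without untreated 0 h replicate 3 Lars was lowest at 10 h (−0.74, against −0.73 for Mars1). Mars1 read 39.8, 36.7 and 35.1 FPKM at 10 h, against 60.7, 64.2 and 48.8 FPKM in untreated cells at 0 h. All treated libraries lay below all untreated ones (−0.62, SE 0.079, adjusted p = 4.60e-06). Its changes at 6 h and 8 h were −0.24 and −0.46.

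Yars, the tyrosyl enzyme at chr4:129189760-129219607 on the plus strand, read 26.6, 24.3 and 25.4 FPKM at 10 h, against 38.8, 41.9 and 33.3 FPKM in untreated cells at 0 h, with no overlap (−0.56, SE 0.073, adjusted p = 6.36e-06). It had peaked at 4 h, at 43.4, 43.0 and 41.4 FPKM, where it was not called, and its steps down from 4 h to 6 h (−0.35) and from 6 h to 8 h (−0.30) passed the test.

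Gars, at chr6:55038007-55079500 on the plus strand, read 90.7, 81.0 and 76.0 FPKM at 10 h, against 122, 130 and 104 FPKM in untreated cells at 0 h, again with no overlap (−0.52, SE 0.082, adjusted p = 5.80e-05). Lars, the leucyl enzyme, read 36.0, 34.4 and 28.0 FPKM, against 56.2, 54.3 and 33.8 FPKM. The groups overlapped, since untreated replicate 3 lay below 2 treated libraries, and the change of −0.51 (SE 0.14) had an adjusted p of 0.010. Vars, the valyl enzyme at chr17:35000987-35016322 on the plus strand, read 30.4, 27.3 and 30.8 FPKM, against 42.2, 46.0 and 35.6 FPKM, with no overlap (−0.47, SE 0.088, adjusted p = 0.000349).

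The other calls at 10 h were Tars (threonyl, −0.42), Nars (−0.41), Dars (aspartyl, −0.40), Farsb (−0.38), Sars (−0.36), Aars (−0.33) and Kars (−0.24). Kars read 94.4, 85.9 and 90.9 FPKM at 10 h, against 106, 109 and 105 FPKM in untreated cells at 0 h, with no overlap. The largest mean fall in FPKM units was that of Gars, at 82.6 ± 7.48 against 119 ± 13.2 (SD, n = 3 each). The cytosolic genes not called at 10 h were Cars, Eprs, Farsa, Hars, Iars, Qars, Rars and Wars. Of these, Iars and Eprs had large errors (SE 0.21 and 0.22) and changes of −0.20 and −0.26. Without the 4 libraries standing apart their changes were −0.42 and −0.41 and both were called (adjusted p = 0.000413 and 0.0019). Exons of Aars overlap Exosc6 on the same strand over 1326 bases. Of the 50-base stretches of Iars 8.61% occur in Gm4849, and of those of Farsb 10.12% occur in the opposite-strand gene Sgpp2. The levels of Aars, Iars and Farsb may therefore hold reads of those genes.

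**Figure D4:**
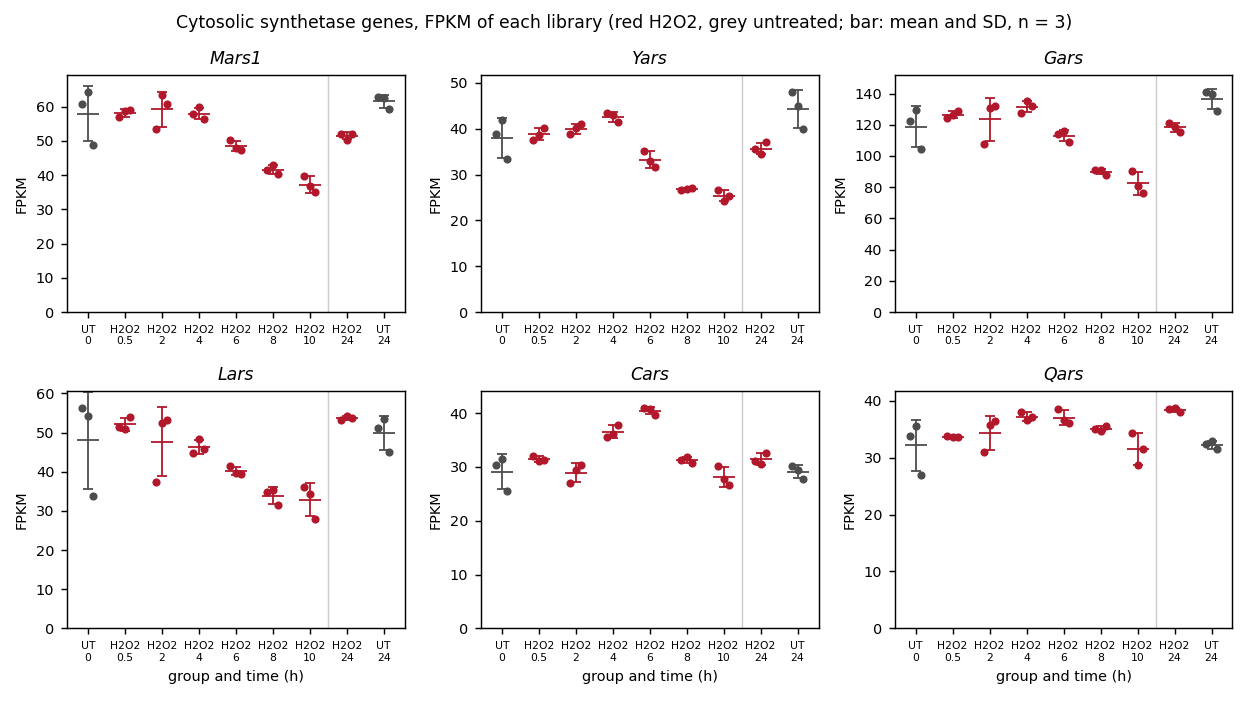
FPKM of 6 cytosolic synthetase genes in each library, by group and time in hours, with points for libraries and bars for the mean and SD of 3 libraries. Mars1, Yars, Gars and Lars are lowest at 10 h (means of 37.2, 25.4, 82.6 and 32.8 FPKM), and Cars is highest at 6 h (40.5 FPKM).

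Median-of-ratios scaling of the libraries shifted the median of all genes by −0.16 at both 8 h and 10 h, and by at most −0.083 in the other comparisons of treated with untreated cells. With that scaling 15 cytosolic genes were lower at 8 h and 17 at 10 h, with 0 higher, and 9 and 7 mitochondrial genes were lower, with 3 and 0 higher. The share of all genes called lower then came to 20.5% at 8 h and 18.5% at 10 h, and that called higher to 19.2% and 12.8%. When only the 6 libraries of the groups compared were fitted, 0 members passed at 4 h, 8 h and 10 h, and 4 passed at 6 h, among them Cars, Hars2 and Rars2. In that fit 7.79%, 11.3% and 3.56% of all genes were called at 4 h, 8 h and 10 h, and 19.9% at 6 h. At 24 h 7 members passed in such a fit, beside 4882 of 13614 genes.

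Promoters are printed for Gars, Yars, Tars and Aars, which were lower at 8 h and 10 h and hold a match to the C/EBP-ATF response element core, the kind of site that ATF4 binds, and for Mars1, the cytosolic gene with the largest fall in the fit of all libraries, which holds none. Each is 300 bases from RefSeq on GRCm38.p6, 250 before and 50 after the annotated start, written 5′ to 3′ on the strand of the gene. Capitals mark matches on either strand to that core, TGATGNAA, and to the E-box, CACGTG. The positions are chr6:55037751-55038050 (plus strand) for Gars, chr4:129189653-129189952 (plus) for Yars, chr15:11399609-11399908 (minus) for Tars, chr8:111033592-111033891 (plus) for Aars and chr10:127311737-127312036 (minus) for Mars1.
Gars: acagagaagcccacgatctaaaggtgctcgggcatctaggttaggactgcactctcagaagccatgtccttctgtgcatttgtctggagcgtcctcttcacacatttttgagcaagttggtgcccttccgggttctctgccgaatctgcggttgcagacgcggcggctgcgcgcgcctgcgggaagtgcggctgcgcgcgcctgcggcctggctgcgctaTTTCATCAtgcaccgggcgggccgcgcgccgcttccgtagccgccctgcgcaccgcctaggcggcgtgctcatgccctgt
Yars: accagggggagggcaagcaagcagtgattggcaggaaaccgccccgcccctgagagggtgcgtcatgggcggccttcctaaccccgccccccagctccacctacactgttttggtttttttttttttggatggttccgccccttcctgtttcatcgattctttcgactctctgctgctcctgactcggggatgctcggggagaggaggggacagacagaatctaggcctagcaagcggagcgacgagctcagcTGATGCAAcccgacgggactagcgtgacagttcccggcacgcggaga
Tars: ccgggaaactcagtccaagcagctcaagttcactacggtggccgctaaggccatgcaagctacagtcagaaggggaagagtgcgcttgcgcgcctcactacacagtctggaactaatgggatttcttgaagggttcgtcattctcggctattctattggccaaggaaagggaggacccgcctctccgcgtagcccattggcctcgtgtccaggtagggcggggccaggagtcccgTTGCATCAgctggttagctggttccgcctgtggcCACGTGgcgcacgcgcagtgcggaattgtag
Aars: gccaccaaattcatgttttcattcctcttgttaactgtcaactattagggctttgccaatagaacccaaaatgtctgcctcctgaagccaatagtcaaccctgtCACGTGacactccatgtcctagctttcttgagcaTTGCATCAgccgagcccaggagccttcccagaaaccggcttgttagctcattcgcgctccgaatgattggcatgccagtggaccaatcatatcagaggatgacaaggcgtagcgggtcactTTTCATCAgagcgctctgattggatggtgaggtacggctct
Mars1: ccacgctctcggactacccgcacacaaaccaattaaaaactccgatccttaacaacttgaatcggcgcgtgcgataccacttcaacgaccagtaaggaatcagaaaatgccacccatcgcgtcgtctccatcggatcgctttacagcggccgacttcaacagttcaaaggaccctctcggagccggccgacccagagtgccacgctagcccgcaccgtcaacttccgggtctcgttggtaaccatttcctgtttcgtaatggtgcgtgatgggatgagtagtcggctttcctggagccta

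Promoters were matched by symbol for 13 of the 20 cytosolic and 14 of the 17 mitochondrial genes. The core TGATGNAA was found in 5 of the 13 cytosolic promoters (Aars, Gars, Iars, Tars and Yars) and in 0 of the 14 mitochondrial ones, beside 3.97% of all 32851 promoters in the RefSeq table. Of those 5 genes, Iars was not called at any time. The E-box CACGTG was found in 4 cytosolic promoters (Aars, Farsb, Iars and Tars) and in 1 mitochondrial promoter (Ears2), beside 7.15% of all. The antioxidant response element core, TGACNNNGC, which NRF2 binds, was found in 3 cytosolic promoters (Aars, Iars and Mars1) and 3 mitochondrial ones (Aars2, Lars2 and Nars2), beside 12.4% of all. These are matches of letters within 300 bases and were not tested as binding sites.

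At 24 h 5 members were called against untreated cells of the same age in culture, beside 1757 of 13614 genes tested. Yars read 35.6, 34.5 and 37.0 FPKM in treated cells, against 48.0, 44.9 and 39.9 FPKM in untreated cells at 24 h, with no overlap (−0.30, SE 0.073, adjusted p = 0.00951). Mars1 read 52.0, 50.3 and 52.0 FPKM, against 62.8, 62.4 and 59.3 FPKM (−0.25, SE 0.079, adjusted p = 0.0378). Sars read 35.5, 35.4 and 35.3 FPKM, against 40.6, 40.0 and 41.3 FPKM (−0.19, SE 0.059, adjusted p = 0.0362). Neither of these pairs of groups overlapped.

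Qars was the cytosolic gene higher at 24 h. It read 38.5, 38.7 and 38.0 FPKM in treated cells, against 32.3, 32.9 and 31.5 FPKM in untreated cells, with no overlap (0.25, SE 0.080, adjusted p = 0.048). This call lay close to the threshold and was lost in 26 of 40 other settings, with scaling among them (0.14, adjusted p = 0.084). Yars2 was the mitochondrial gene lower at 24 h, at 10.7, 10.4 and 10.3 FPKM, against 14.03, 12.7 and 15.8 FPKM in untreated cells (−0.40, SE 0.10, adjusted p = 0.0119). Its groups did not overlap either.

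The cytosolic count at 24 h was thus 1 higher and 3 lower, and the mitochondrial count 0 higher and 1 lower, while 8.63% of all genes were called higher and 4.28% lower. Without the 4 libraries, none of which belongs to a 24 h group, a smaller estimated spread gave 4 cytosolic genes higher and 6 lower and 2 mitochondrial genes higher and 3 lower, beside 33.5% and 18.4% of the genes in that fit. Scaling gave 7 cytosolic and 2 mitochondrial genes lower and 0 higher, beside 7.18% of all genes called lower and 6.66% called higher. Leaving out untreated 24 h replicate 1 or 3 left 1 call, and leaving out untreated replicate 2 or any of the treated replicates left 2.

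The difference between the 24 h effect and the 10 h effect was tested directly. Mars1 passed, with an effect at 24 h that was 0.36 above its effect at 10 h (SE 0.11, adjusted p = 0.0451), while 8.7% of all genes tested were called in either direction. The difference was positive for 19 of the 20 cytosolic genes, with a median of 0.29, and 10 of them had an unadjusted p below 0.05. For mitochondrial genes the median was −0.0025, and 4 had an unadjusted p below 0.05. For all 13614 genes the median was −0.037, and 2830 had an unadjusted p below 0.05. Without the 4 libraries standing apart 16 cytosolic genes passed as positive and 0 as negative, and 2 mitochondrial genes as positive and 1 as negative, with 27.3% of the genes in that fit called. With scaling 11 cytosolic genes and 1 mitochondrial gene passed as positive, with 8.63% of all genes called. Leaving out untreated 0 h replicate 3 alone gave 18 members, beside 2258 of 13557 genes in that fit, and leaving out 2 h replicate 1 gave 4. The Mars1 call was lost in 24 of 39 other settings, most of them leaving out a single library, with adjusted p up to 0.248, and the count was then 0. Between the untreated groups, 24 h against 0 h, 0 members were called, and 0.705% of all genes were. An unadjusted p below 0.05 was found for 6 members, beside 1285 of all 13614 genes.

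Changes between neighbouring treated times compare treated groups with each other, in the same fit of all 27 libraries. Over these steps 14 members were called, with 25 when untreated 0 h replicate 3 was left out and 9 when 6 h replicate 2 was. From 0.5 h to 2 h 0 members were called, with 1.17% of all genes called. In this step 3 members had an unadjusted p below 0.05, beside 1803 of 13614 genes. From 2 h to 4 h Cars rose by 0.33, and Rars2 fell by 0.23, with 10.2% of all genes higher and 9.89% lower. From 4 h to 6 h Kars, Mars1, Nars, Sars and Yars fell, by 0.14 to 0.35, as did Rars2, while Mars2 and Pars2 rose, with 11.6% of all genes higher and 8.48% lower.

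From 6 h to 8 h 7 cytosolic genes fell, with 18.1% of all genes higher and 6.02% lower. They were Cars (−0.36), Gars (−0.33), Yars (−0.30), Vars (−0.25), Mars1 (−0.22), Sars (−0.17) and Kars (−0.16). In the same step Rars2 and Nars2 rose by 0.37 and 0.28 and Cars2 fell by 0.39. From 8 h to 10 h Pars2 alone was called, as lower, with 1.78% of all genes higher and 3.58% lower.

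**Figure D5:**
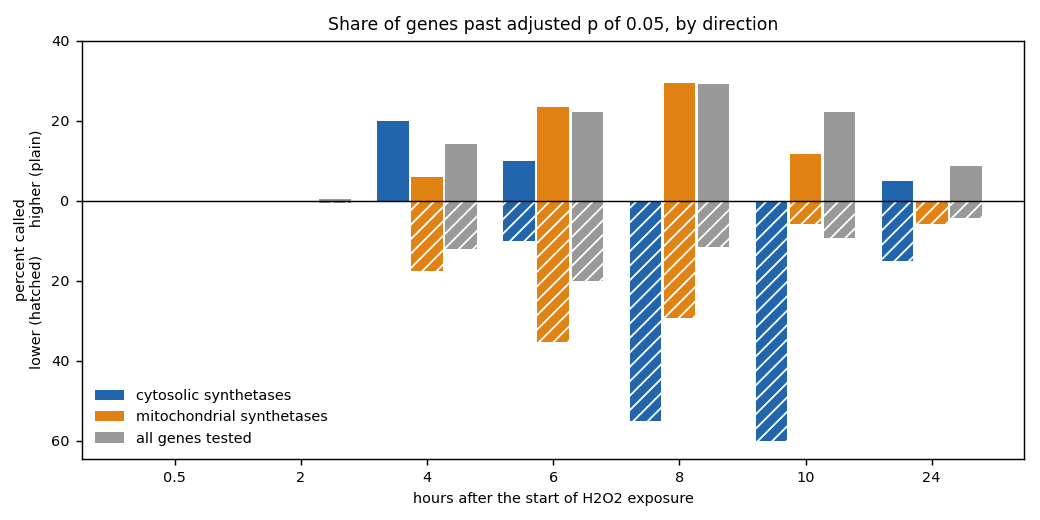
Percent of the 20 cytosolic synthetase genes, the 17 mitochondrial ones and all 13614 genes tested that were called higher (plain bars, upward) or lower (hatched bars, downward) at each time in hours after the start of exposure. At 10 h 12 of 20 cytosolic genes are lower and 0 higher, while 9.43% of all genes are lower and 22.2% higher.

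The falls at 10 h were spread over both catalytic classes and over members inside and outside the multi-synthetase complex. Of the 9 cytosolic class I genes 4 were lower (Lars, Mars1, Vars and Yars), with a median change of −0.20. Of the 10 class II genes 8 were lower, with a median of −0.37, and Eprs, which joins an enzyme of each class, was not called. Of the 8 genes for enzymes of the complex (Dars, Eprs, Iars, Kars, Lars, Mars1, Qars and Rars) 4 were lower, with a median of −0.25, and of the 12 others 8 were lower, with a median of −0.37. The difference between these sets was not tested. In phenylalanyl-tRNA synthetase, built of 2 kinds of subunit, Farsb was lower at 10 h (−0.38) and Farsa, at −0.17, did not pass (adjusted p = 0.058). Mars1 and Mars2 had changes of opposite sign at 8 h (−0.46 and 0.47), and both passed, also without untreated 0 h replicate 3 (−0.57 and 0.29).

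At 10 h the 3 scaffold genes of the complex had a median change of −0.21, beside −0.25 for its 8 enzyme genes (difference not tested). Aimp2, a scaffold that holds several of its enzymes, averaged 18.3 ± 0.356 FPKM at 6 h, against 28.7 ± 5.27 FPKM in untreated cells at 0 h (SD, n = 3 each; −0.61, adjusted p = 0.00013), and was also lower at 4 h (−0.32) and 8 h (−0.35). Eef1e1, a smaller scaffold protein, was lower at 6 h (−0.34) and 24 h (−0.29). Aimp1 was not called at any time, with a change of −0.27 at 10 h (adjusted p = 0.054). None of the 3 was called at 10 h.

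Of 14 other genes of mitochondrial translation and charging, 7 were lower and 1 higher at 6 h, beside 20% and 22.3% of all genes tested, with a median of −0.24 beside 0.00028 for all genes. Gatc, a subunit of the enzyme that makes glutaminyl-tRNA in mitochondria, averaged 5.98 ± 0.546 FPKM at 6 h against 11.0 ± 1.48 FPKM in untreated cells (−0.78, adjusted p = 1.4e-05). Mtrf1, a mitochondrial release factor, was lower by 0.65, and Mtif2, the initiation factor, by 0.58. At 10 h 3 were lower, led by the elongation factor gene Tufm (−0.38), and 0 higher, beside 9.43% and 22.2% of all genes. The 4 h count among 7 cytosolic elongation factor genes was 3 higher and 0 lower, beside 14.2% and 12.1% of all genes. Their 6 h count was 2 higher and 1 lower, beside 22.3% and 20%. Eef2, the translocation factor, averaged 987 ± 11.1 FPKM at 6 h against 658 ± 72.7 FPKM (0.59), and with scaling its change at 10 h was 0.05 rather than 0.25. Among 42 genes of tRNA synthesis and maturation the 6 h count was 11 higher and 9 lower, beside 22.3% and 20% of all genes. The 10 h count was 2 higher and 3 lower, beside 22.2% and 9.43%. Rpp25, a subunit of RNase P, which trims precursor tRNAs, had the largest of these changes (−1.44 at 6 h).

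Of 6 synthetase-like and editing genes, 1 was higher and 1 lower at 6 h, beside 22.3% and 20% of all genes. The counts were the same at 8 h, beside 29.2% and 11.6%. At 10 h 1 gene was lower, beside 9.43% of all genes. That gene, Aarsd1, a free-standing editing enzyme that removes serine wrongly loaded on the alanine tRNA, averaged 13.1 ± 2.26 FPKM at 10 h against 20.9 ± 4.34 FPKM in untreated cells at 0 h (−0.63, adjusted p = 0.00045). Prorsd1, a presumed editing protein, was lower at 4 h (−0.72) and 6 h (−0.55). Dalrd3, a tRNA-binding protein, was higher at 4 h (0.54), 6 h (0.49) and 8 h (0.29). Neither Prorsd1 nor Dalrd3 was called at 10 h.

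A list of 26 genes held Atf4 itself and ATF4 targets other than synthetases, and 23 of them were tested, Atf4 included. At 4 h 5 were higher and 2 lower, beside 14.2% and 12.1% of all genes. At 6 h 5 were higher and 7 lower, beside 22.3% and 20%. At 8 h 3 were higher and 10 lower, beside 29.2% and 11.6%. At 10 h 3 were higher and 11 lower, beside 22.2% and 9.43%. At 24 h 1 was higher and 6 lower, beside 8.63% and 4.28%. The median of the 23 was −0.45 at 10 h, beside 0.11 for all genes. The arginine and lysine transporter gene Slc7a3 averaged 15.8 ± 1.26 FPKM at 10 h against 39.5 ± 4.38 FPKM in untreated cells at 0 h (−1.26, adjusted p = 5.1e-10). Phgdh, the first enzyme of serine synthesis, averaged 19.4 ± 2.14 FPKM against 40.99 ± 4.71 FPKM (−1.04), and Aldh18a1, an enzyme of proline synthesis, was lower by 0.91. Asns, the asparagine synthetase gene, was lower at 6 h, 8 h and 10 h by 0.43, 0.53 and 0.52, while at 24 h its change was −0.017 and not called. The stress genes Ddit4, Cebpg and Ddit3 were higher at 10 h, by 0.73, 0.64 and 0.38. Atf4 mRNA itself was not called from 0.5 h to 10 h, with a change of −0.038 at 10 h, and was lower at 24 h, at 71.9 ± 4.54 FPKM in treated cells and 102 ± 3.84 FPKM in untreated cells (−0.50, adjusted p = 0.000616). Transcript levels do not show the activity of ATF4, a protein regulated largely at translation.

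The authors' deposited tables list q-values below 0.05 for 4 members at 6 h, 13 at 8 h, 11 at 10 h and 13 at 24 h, and for 0 at 0.5 h, 2 h and 4 h. Of the 13614 genes tested here, the authors' deposited tables list such q-values for 23.9% at 6 h, 14.6% at 8 h, 7.76% at 10 h and 33.7% at 24 h, and for 0.25%, 0.279% and 11.8% at 0.5 h, 2 h and 4 h.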

How the data were processed

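Poly(A) RNA of 27 libraries in 9 groups of 3 was prepared by a stranded TruSeq procedure and sequenced in paired-end mode, per the labels' protocols. The submitters' processing notes list the tools edgeR, StringTie, HISAT2, cutadapt and FastQC with the build mm10. Tool versions, annotation release and strand setting were not given in the sources used here, so reads of overlapping antisense genes may be shared. The authors deposited 7 tables of 38352 genes, with FPKM per library per the file headers. Of the 15 repeated control columns 0 differed. The log2 ratio, p-value and q-value columns are the authors' deposited test results, and the log2 ratio equals that of the mean FPKM of the groups. The tests here used the FPKM values only.

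Tables were joined by Ensembl identifier. The 13614 genes reaching 1 FPKM in 3 or more libraries were fitted with limma 3.58.1 in R 4.3.3 on log2(FPKM + 1), with a pseudocount of 1, a mean-variance trend, 1 mean per group over all 27 libraries, and Benjamini-Hochberg adjustment within each comparison at 0.05. Such p-values set a difference against the spread between replicates over all 9 groups. Positions, GC content and transcript sequences for the checks of shared stretches came from GENCODE M21 on GRCm38, and promoters from RefSeq, read with pandas 2.3.3 in Python 3.11.15. The fit was tested on simulated data.

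The members, gene lists and promoter motifs were chosen with earlier results of these data known, and the list counts are no independent evidence of their direction. Values per library are given for the 5 members of each compartment with the largest called change, the most highly expressed one, up to 3 whose calls opposed the majority at 6 h and those called at 24 h. The values of 1 mitochondrial member are not reported here, though counts, medians and sums over the members include it. In each companion list up to 3 called genes with the largest change are named. Nanog, Pou5f1, Esrrb, Dppa5a, Asns, Ddit4, Cebpg, Ddit3, Atf4, Aimp1 and Mars2 beside Mars1 were chosen after their values were seen. So were the single-library values of Kars, Lars2, Hars2 and Sars outside that rule.

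Replicate numbers were checked for pairing. Deviations of libraries with the same number from their group means correlated at 0.46, 0.46 and 0.69 for 8 h against untreated 0 h. For 10 h the values were 0.56, 0.57 and 0.80. Replicate 3 stood apart in each of those groups, and deviations from a mean of 3 libraries are not independent. These correlations therefore cannot show whether the numbers pair the libraries. For 2 h, where replicate 1 stood apart, they were −0.80, 0.64 and −0.77. In every comparison other than 8 h and 10 h at least 1 correlation was 0.1 or lower. The main fit used no pairing. Alternatives were median-of-ratios scaling, a pseudocount of 0.1, a 5 FPKM filter or none, no trend, a control made of both untreated groups, a fit of the compared libraries only, a replicate block alone or with scaling, library weights, a natural-spline correction (4 degrees of freedom) for GC content and length, the fit without the 4 libraries standing apart, and each library left out in turn.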

Additional observations from a re-analysis of the deposited data

Results flagged for a closer look

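The effect of treatment on Mars1 differed between 24 h and 10 h. Mars1 was lower by 0.25 on the log2(FPKM + 1) scale in treated than in untreated cells at 24 h and lower by 0.62 at 10 h against untreated cells at 0 h, and the 24 h effect minus the 10 h effect was 0.36 (SE 0.11, limma, adjusted p = 0.0451). It was picked out because the difference between the effects itself passed the test. Treated cells at 24 h lay below untreated cells at 24 h in all 3 libraries, as did those at 10 h below untreated cells at 0 h. Without untreated 0 h replicate 3 the difference was 0.48 (adjusted p = 0.00089). It stayed positive in all 39 other settings tried but was no longer called in 24 of them, among them no filter on low values (adjusted p = 0.074), a fit of only the libraries compared (adjusted p = 0.248) and most of those leaving out a single library.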

How the results depend on the processing

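The 64 calls of single members over 9 comparisons reversed in 0 of the settings tried. Against the counts reported (8 at 4 h, 14 at 6 h, 21 at 8 h, 15 at 10 h, 5 at 24 h, 0 between untreated groups, 1 for the difference between the effects at 24 h and 10 h and 14 between consecutive times), no filter gave 3 at 24 h and 0 for the difference. Median-of-ratios scaling gave 22 at 6 h, 24 at 10 h, 9 at 24 h, 12 for the difference and 24 between times. Of all 13614 genes it called 6015 at 6 h, 4260 at 10 h, 1885 at 24 h and 1175 for the difference. A fit of only the libraries compared gave 0 at 4 h, 4 at 6 h, 0 at 8 h and 0 at 10 h. At 24 h it gave 7, beside 4882 of 13614 genes. It gave 0 for the difference and 27 between times, and 55 of the 64 calls were lost in it. For the difference 417 of 13614 genes were called in that fit. Library weights gave 3 at 2 h, 18 at 4 h, 29 at 6 h, 25 at 10 h, 16 at 24 h, 6 between untreated groups, 21 for the difference and 35 between times, while 12.2%, 57.1%, 62.3%, 42.5%, 54.8%, 36.9% and 32.2% of all genes were called at 2 h, at 4 h, at 6 h, at 10 h, at 24 h, between untreated groups and for the difference. The GC and length correction gave 1 between untreated groups, 11 for the difference and 24 between times. In that fit 301 and 2061 of 13602 genes were called between untreated groups and for the difference. Without the 4 libraries standing apart the counts were 13 at 4 h, 28 at 6 h, 15 at 24 h and 4 between untreated groups. They were 19 for the difference and 29 between times. Of 13426 genes 6856, 7611 and 6967 were called at 4 h, 6 h and 24 h in that fit. Between untreated groups 4105 genes were called, and for the difference 3664. With scaling as well, a setting chosen after seeing the data, the member counts were 13 at 4 h, 29 at 6 h, 29 at 10 h and 23 at 24 h. Between untreated groups 8 members were called, with 21 for the difference and 32 between times. Of 13426 genes this setting called 6969, 7622, 5430 and 6964 at 4 h, 6 h, 10 h and 24 h. It called 4236 genes between untreated groups and 3708 for the difference. The replicate block gave 22 at 8 h and 16 at 10 h, beside 5763 and 4540 of 13614 genes, and changed 1 of the 64 calls. With scaling it gave 22 at 6 h, 26 at 10 h, 8 at 24 h, 13 for the difference and 24 between times. With single libraries left out the counts ran from 0 to 0 at 0.5 h, 2 h and between untreated groups, from 4 to 11 at 4 h, 10 to 20 at 6 h, 15 to 22 at 8 h, 13 to 19 at 10 h, 1 to 6 at 24 h, 0 to 18 for the difference and 9 to 25 between times. The highest difference count and the 25 between times came without untreated 0 h replicate 3, the lowest between times without 6 h replicate 2, and the 4 at 4 h without 4 h replicate 2 or 3. In the fit without untreated 0 h replicate 3, 2258 of 13557 genes were called for the difference. The cause of these shifts was not tested. Counts of all genes are not given for no filter, the replicate block with scaling, or most fits leaving out a single library. The same holds for the member counts between times. Whether these member counts follow the number of all genes called was not tested. Depth is unknown in FPKM, and the shift of low genes such as Wars2 and Nars2 is understated by the pseudocount.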
